A study of Mus musculus with 20 samples.

Results

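Cd34, Krt15, Lgr5 and Angptl7 are 4 genes by which the stem cells of the hair follicle bulge are recognised, sorted or traced in the mouse. Here they were followed over the hair cycle, a high fat diet and ageing in RNA from hair follicle stem cells of male mice. The 4 genes were picked by name, with earlier results of these data known, out of 18727 genes tested. The p-values below do not allow for that choice. Array probes were assigned to them by the transcript accession that each probe carries, which gave 5 of the 56605 probes on the array, 2 of them for Cd34. All 5 passed the filter on dim probes, and each gene was read from its brightest probe.

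The animals were aged mice of 24 months, mice of 5 months that had received a high fat diet (HFD) or a normal diet (ND) for 3 months, and mice of 2 months that had received HFD or ND for 4 days. Each of these 5 conditions was measured on 1 array in anagen, the growth phase of the hair cycle, and on 3 arrays in telogen, its resting phase, which makes 5 anagen and 15 telogen arrays. The labels name no strain, no transgene and no diet for the aged mice, and they do not say whether the replicates of a group came from separate mice. The p-values therefore rest on the spread between arrays, which may be technical. The sources used here do not give the method of cell isolation.

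The bulge is the niche below the sebaceous gland in which follicle stem cells rest through telogen and from which, with the hair germ beneath it, a new growing follicle is built at the start of anagen. Cd34 encodes a cell surface sialomucin that is used with integrin alpha 6 to sort mouse bulge cells. Krt15 encodes a type I keratin of bulge cells in the basal layer, and its promoter is widely used to target them. Lgr5 encodes a receptor for R-spondins, which raise Wnt signalling, and marks cells of the lower bulge and hair germ that contribute to the growing follicle. Angptl7 encodes a secreted protein of the angiopoietin-like family that bulge cells make and that acts on the lymphatic capillaries around the mouse follicle.

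All levels below are log2 values of a probe's signal relative to the 75th percentile of its array, so a difference of 1 is a 2-fold difference, and levels of different genes are not set against each other. Each array held 59305 spots, of which 60.7% to 83.49% rose well above background and 0 were saturated. The number of arrays limits the precision. Cd34, Krt15 and Lgr5 were well above background on all 20 arrays, as were the bulge transcription factor genes Sox9, Lhx2, Nfatc1 and Tbx1 and the hemidesmosome collagen gene Col17a1. Angptl7 was well above background on 19 arrays, the aged anagen array being the exception. Among 8 endothelial markers, Cdh5 and Kdr were not well above background on any array. Of the others, Vwf was well above background on 20 arrays, Cldn5 and Esam on 19 each, Pecam1 on 17 and Emcn on 4. The anagen arrays sat in the first column of their slides and the telogen arrays in the other columns, so that hair cycle phase and slide column cannot be told apart. In whole-population RNA, fewer cells expressing a gene and less RNA of it per cell cannot be told apart either.

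The first comparison asked how the 4 genes differ between growing and resting follicles. Cd34, Krt15 and Angptl7 were lower in anagen than in telogen, and Lgr5 did not pass the test. The differences were 4.56-fold for Cd34 and 1.75-fold for Krt15, and Angptl7 had the widest range of differences. In limma, fitted to the 20 arrays with a term for condition and one for phase, 3 of the 4 genes passed at an adjusted p of 0.05, all as lower. Of all genes, 3.31% passed as lower, 2.81% as higher and 6.11% in either direction.

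Cd34 measured 3.38 in aged anagen, 3.34 in HFD 3 months anagen, 2.53 in ND 3 months anagen, 3.07 in HFD 4 days anagen and 3.45 in ND 4 days anagen. In telogen its lowest level was 4.73, its median 5.44 and its highest 5.80. Every anagen array was below every telogen array, a separation in this direction that 0.716% of all genes showed. The mean was 3.15 ± 0.38 (SD, n = 5) in anagen and 5.35 ± 0.32 (SD, n = 15) in telogen. The difference was -2.19 ± 0.20 (log2, SE), with a 95% interval from -2.6 to -1.78 and an adjusted p of 1.99e-05 in limma, which placed Cd34 at rank 2 of 18727 genes by p. Within conditions, anagen was 3.17-fold lower in aged mice, 3.34-fold in HFD 3 months, 8.25-fold in ND 3 months, 5.13-fold in HFD 4 days and 4.41-fold in ND 4 days. The second Cd34 probe read 2.57 in aged anagen, 3.36 in HFD 3 months anagen, 2.65 in ND 3 months anagen, 3.37 in HFD 4 days anagen and 3.08 in ND 4 days anagen, and gave a difference of -1.94 ± 0.16 (log2, SE, limma adjusted p of 1.49e-05). Both probes carry the same transcript accession and place Cd34 lower in anagen.

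Krt15 measured 5.83 in aged anagen, 6.34 in HFD 3 months anagen, 5.71 in ND 3 months anagen, 5.96 in HFD 4 days anagen and 5.71 in ND 4 days anagen. In telogen it ranged from 6.13 to 7.28 with a median of 6.73. The ranges overlapped, because the HFD 3 months anagen array lay above the lowest aged telogen array, yet in each condition the anagen array was below all 3 telogen arrays. The mean was 5.91 ± 0.26 (SD, n = 5) in anagen and 6.72 ± 0.27 (SD, n = 15) in telogen, and the difference was -0.81 ± 0.18 (log2, SE, 95% interval -1.19 to -0.42, limma adjusted p of 0.0137). By condition Krt15 was 1.7-fold lower in aged, 1.27-fold in HFD 3 months, 2.11-fold in ND 3 months, 1.69-fold in HFD 4 days and 2.13-fold in ND 4 days anagen. The call rested on the ND anagen arrays: without the ND 3 months anagen array the limma adjusted p was 0.0668, and without the ND 4 days anagen array it was 0.0676, both at a difference of -0.74.

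Lgr5 measured 3.08 in aged anagen, 2.69 in HFD 3 months anagen, 3.32 in ND 3 months anagen, 3.50 in HFD 4 days anagen and 3.80 in ND 4 days anagen, against a telogen range of 2.60 to 4.16 with a median of 3.43. The 5 anagen arrays lay inside the telogen range. The receptor gene averaged 3.28 ± 0.42 (SD, n = 5) in anagen and 3.47 ± 0.47 (SD, n = 15) in telogen. The difference was -0.19 ± 0.21 (log2, SE), with a 95% interval from -0.63 to 0.25 and a limma adjusted p of 0.598, close to the median difference of -0.16 over all genes. An anagen array fell below its 3 telogen arrays in the ND 3 months condition only, at -0.43 relative to their mean.

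Angptl7 measured 0.91 in HFD 3 months anagen, -2.22 in ND 3 months anagen, -2.15 in HFD 4 days anagen and 0.39 in ND 4 days anagen, and its signal of -6.45 in aged anagen was not well above background. In telogen the lowest level was -1.01, the median 3.95 and the highest 5.01. Each anagen array was below the 3 telogen arrays of its condition, but the telogen level of -1.01, in aged replicate 2, lay below 2 of the anagen arrays. Anagen was 3.33-fold lower in HFD 3 months, 52.2-fold in ND 3 months, 116-fold in HFD 4 days and 10.3-fold in ND 4 days. In aged mice it was at least 168-fold lower, a bound that sets the telogen mean of 2.43 against the lowest signal well above background on that anagen array. The fitted difference was -5.31 ± 0.92 (log2, SE, 95% interval -7.25 to -3.37, limma adjusted p of 0.00245). It uses the aged anagen value as measured, so 4 of the 5 anagen values behind it are levels and 1 is background.

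Cd34, Krt15 and Angptl7 each had an anagen array below all 3 telogen arrays in all 5 conditions, as did 354 of 18727 genes, or 1.89%. An exact permutation test that moved the anagen label among the 4 arrays of each condition gave a two-sided p of 0.000977 for each of these 3 genes, the smallest this design allows, and 0.321 for Lgr5. Aged, ND 3 months and ND 4 days anagen arrays shared a slide with the telogen arrays of their condition, and the differences there were -1.66, -3.04 and -2.14 for Cd34 and -0.76, -1.08 and -1.09 for Krt15. With the slide as a block, the HFD anagen arrays inform only the slide terms. The blocked differences thus rest on these same conditions and are no separate check. In limma they were -2.28 for Cd34 (adjusted p of 0.000338), -0.98 for Krt15 (0.0305), -0.17 for Lgr5 (0.724) and -5.98 for Angptl7 (0.0109). The Angptl7 value includes the aged anagen signal at background.

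**Figure D1:**
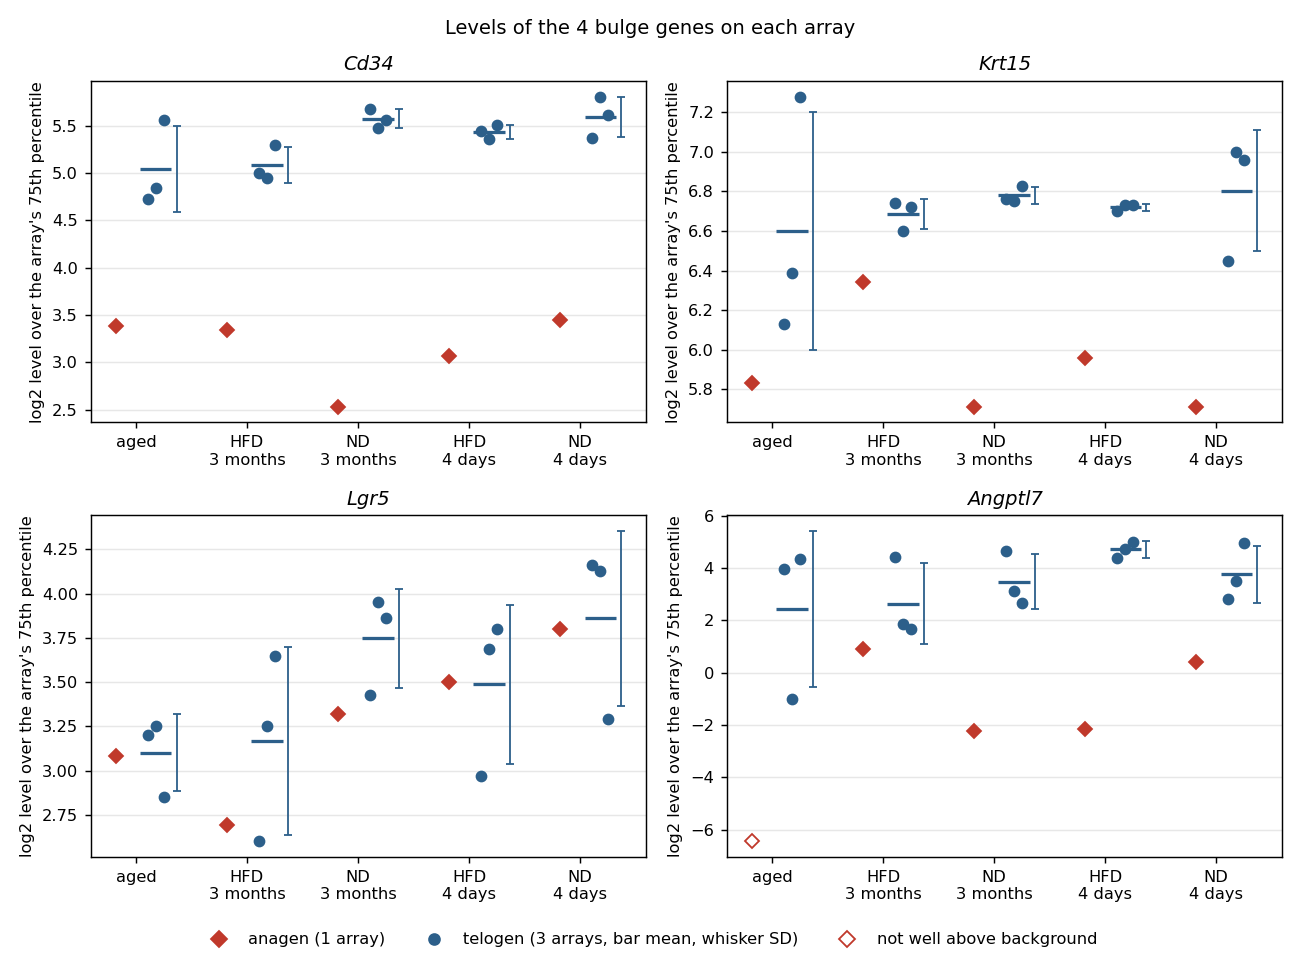
Level of each gene on each array (log2 over the array's 75th percentile), by condition, with the anagen array (red diamond) left of the 3 telogen arrays (blue circles, bar at the mean, whisker 1 SD). Cd34 is below 3.5 on the 5 anagen arrays and above 4.7 on the 15 telogen arrays, while Lgr5 overlaps in range, and the open diamond marks the aged anagen signal of Angptl7 that was not well above background.

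Upstream sequences were at hand for Cd34 and Angptl7 and are shown so that the letters can be read beside the levels. A link between the letters and the anagen levels was not tested. They are the 250 bases before the annotated start in RefSeq's promoter table for GRCm38.p6, which held 2 of the 4 genes; those of Krt15 and Lgr5 are not used here. The Cd34 window is chr1:194938571-194938820 on the plus strand and the Angptl7 window chr4:148500463-148500712 on the minus strand, each printed 5′ to 3′ in the gene's direction, with any motif match in capitals.
Cd34: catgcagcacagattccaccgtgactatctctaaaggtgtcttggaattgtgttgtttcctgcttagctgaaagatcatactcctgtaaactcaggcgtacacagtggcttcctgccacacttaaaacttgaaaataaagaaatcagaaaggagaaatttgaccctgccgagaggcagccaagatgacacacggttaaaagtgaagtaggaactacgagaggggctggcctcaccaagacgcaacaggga
Angptl7: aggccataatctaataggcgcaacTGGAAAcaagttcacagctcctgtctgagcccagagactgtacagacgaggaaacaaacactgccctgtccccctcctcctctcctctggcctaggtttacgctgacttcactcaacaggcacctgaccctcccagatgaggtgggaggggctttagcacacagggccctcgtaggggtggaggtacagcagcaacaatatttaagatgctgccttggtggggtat
Both strands were searched for 4 motifs of factors that are known in bulge cells or in Wnt signalling. These were CTTTGA for TCF/LEF factors, found in 13.8% of 32851 promoter windows of this length, TGGAAA for NFAT factors (18.6%), TAATTA for LIM homeodomain factors (4.84%) and GTAAACA for FOX factors (3.17%). The Cd34 window held none of these letters. The Angptl7 window held 1 match, the NFAT letters TGGAAA on the gene's own strand, starting 226 bases before the start and overlapping no other match.

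The genes around these 4 in the bulge programme were read from a list of 22 other bulge stem cell genes, all of which were tested. This list and those below were also chosen with earlier results of these data known, so their counts and medians are descriptive. In anagen 9 of the 22 were lower, 0 were higher and 13 did not pass, with a median difference of -0.51 over the list against -0.16 over all genes. Over all genes 3.31% passed as lower and 2.81% as higher, and these shares also stand beside the anagen counts of the lists below. In those shorter lists a single call is not a result about the list. Fgf18, a growth factor gene, differed by -4.78 ± 0.64 (log2, SE, limma adjusted p of 0.000348, with 4 of 5 anagen arrays well above background), and Ltbp2, which encodes a latent TGF-beta binding protein, by -2.86 ± 0.37 (0.000288). Wif1, which encodes a secreted Wnt inhibitor, and Dkk3, which encodes a secreted protein of the Dickkopf family, differed by -1.96 and -1.2. Fgf1, Dab2 and Ccn2 differed by -1.79, -1.72 and -1.63, and Foxc1 and Col17a1 by -0.97 and -0.72. Dkk3 ranged from 2.44 to 3.16 in anagen and from 3.63 to 4.42 in telogen, without overlap. The transcription factor genes Sox9 (-0.57, adjusted p of 0.124 in limma), Lhx2 (-0.44, 0.102), Nfatc1 (-0.12) and Tbx1 (-0.14) did not pass.

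Among 8 keratins of the follicle and basal layer, set beside Krt15, 3 were higher in anagen, 1 was lower and 4 did not pass, with a median of 0.32. Krt16, a keratin of activated keratinocytes, was higher by 3.22 ± 0.55 (log2, SE, limma adjusted p of 0.00226), Krt79, a keratin of the upper follicle, by 1.44 and Krt17, of the outer root sheath, by 0.66. Krt75, of the companion layer, fell by 2.56 on the log2 scale (adjusted p of 0.00578 in limma), with 3 of 5 anagen arrays well above background. Krt14, which pairs with Krt5 in basal keratinocytes, differed by -0.046 and Krt5 by -0.4, neither passing. Krt15 and Krt75 fell where Krt16, Krt17 and Krt79 rose.

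Around Lgr5, 7 of 8 genes of the R-spondin system were tested and 0 of them passed in anagen, with a median of 0.26. The related receptor genes Lgr4 and Lgr6 differed by 0.28 ± 0.18 and 0.26 ± 0.34 (log2, SE). Around Angptl7, 9 of 10 angiopoietin-like and lymphatic niche genes were tested, of which 1 was lower in anagen and 8 did not pass, with a median of -0.058. The lower one was Angptl2, another secreted member of the family, at -1.47 ± 0.18 (log2, SE, limma adjusted p of 0.000232). Angptl4, known for its part in lipid metabolism, differed by 0.3 ± 0.39, and Ntn4, which encodes a netrin, by 1.14 ± 0.92, neither passing. Around Cd34, 9 of 10 sialomucin and surface marker genes were tested and 1 was lower, Cd200 at -1.43 ± 0.4 (adjusted p of 0.0466 in limma), with a median of 0.3. Of 6 markers of the hair germ and upper follicle 2 were higher, Lrig1 by 1.18 ± 0.23 and Gli1 by 1.52 ± 0.37 (limma adjusted p of 0.00708 and 0.0219), and the median was 0.64.

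**Figure D2:**
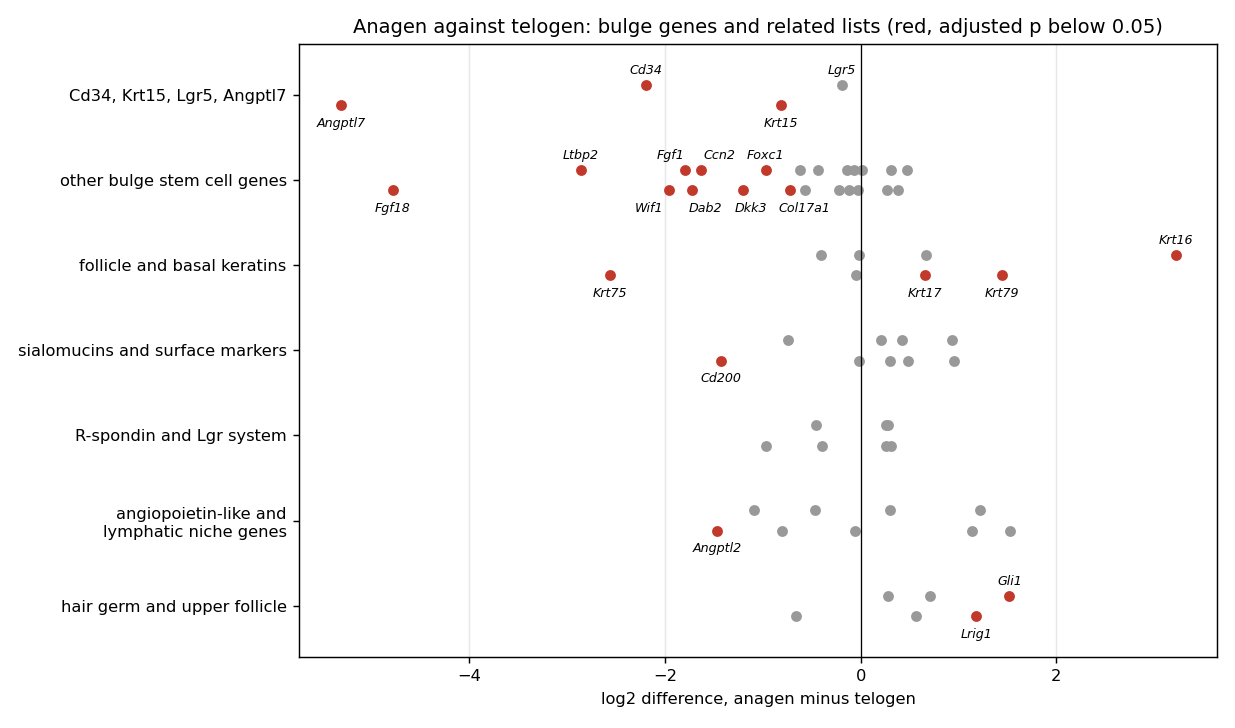
Difference between anagen and telogen (log2, limma fit over 20 arrays) for Cd34, Krt15, Lgr5 and Angptl7 and for 6 lists of related genes, 1 point per gene, red where the adjusted p was under 0.05. Angptl7, Cd34 and Krt15 are red and left of 0, as are 9 of the 22 other bulge genes. In all, 17 of those 22 lie left of 0, as does Lgr5. The R-spondin and Lgr list has no red point.

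Markers of other cell types were summed as scaled signal on each array. Endothelial markers, of note because vessels also express Cd34, summed to 0.274 to 0.947 in anagen and 0.242 to 1.05 in telogen. Of 8 such markers, 2 to 4 were well above background per anagen array and 3 to 6 per telogen array. Cdh5 and Kdr were not well above background on any array, and 0 of the 5 tested passed. Fibroblast markers summed to 1.6 to 3.13 in anagen and at least 4.05 in telogen, without overlap, with Lum and Dpt not well above background on any anagen array. Of the 6 tested, Col1a2 had the highest telogen median, at 2.38 in log2, and Pi16 the next, at -0.43. Among these 6, Col1a2 thus weighs most in the sum, which does not stand for all fibroblast markers. Of 6 fibroblast markers tested, Col1a2 fell (-1.9, limma adjusted p of 0.00212). Dcn was well above background on 3 anagen arrays and 0 telogen arrays. It passed the filter on dim probes only through anagen, so its higher anagen level is not a test of direction. Immune markers summed to 2.11 to 24 in anagen and 1.65 to 14.6 in telogen, and 1 of 7 tested rose (Laptm5, 2.13, limma adjusted p of 0.0473). Hair matrix markers summed to 4.36 to 12.1 and 4.54 to 10.9, and 1 of 9 rose (Krt28, 1.37), while suprabasal markers summed to 172 to 255 and 110 to 271, and 1 of 7 rose (Krt1, 1.26). Their part in the difference of the bulge genes was not tested.

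The second set of comparisons asked what HFD did to the 4 genes in telogen. None of them passed in limma after 3 months or after 4 days, where 0 of 18727 genes (0%) passed in either comparison, while 730 and 817 genes had an unadjusted p under 0.05. After 3 months the mean of each of the 4 genes was lower in HFD than in ND. Cd34 measured 5.00, 4.95 and 5.30 in HFD, against 5.68, 5.48 and 5.56 in ND, and the groups did not overlap. The difference in Cd34 was -0.49 ± 0.27 (log2, SE), with a 95% interval from -1.07 to 0.086. On the second Cd34 probe the values were 4.90, 4.79 and 4.98 in HFD and 5.15, 5.13 and 5.14 in ND, again apart, with a smaller difference of -0.26.

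Krt15 at 3 months measured 6.74, 6.60 and 6.72 in HFD, against 6.76, 6.75 and 6.83 in ND. These groups did not overlap either, and the difference was -0.098 ± 0.30 (log2, SE, 95% interval -0.74 to 0.55). Cd34 and Krt15 thus were 2 of the 4 genes with HFD wholly below ND, which held for 5.7% of all genes, and an exact permutation test of 3 arrays against 3 gave each a two-sided p of 0.1, the smallest it allows. Lgr5 measured 2.60, 3.25 and 3.65 in HFD, against 3.43, 3.95 and 3.86 in ND, which overlapped, with a difference of -0.58 ± 0.36 (95% interval -1.36 to 0.2). Angptl7 measured 4.41, 1.86 and 1.66 in HFD, against 4.66, 3.14 and 2.65 in ND, with 1 HFD array among the ND values and a difference of -0.84 ± 1.23 (95% interval -3.52 to 1.84). Immune markers summed to 4.61 to 14.6 in HFD and 2.45 to 6.38 in ND, and endothelial markers to 0.242 to 0.288 and 0.245 to 0.348, and their part in these values was not tested.

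After 4 days Cd34 measured 5.44, 5.36 and 5.51 in HFD, against 5.37, 5.80 and 5.61 in ND, and Krt15 measured 6.70, 6.73 and 6.73 in HFD, against 6.45, 7.0 and 6.96 in ND. For both genes the HFD arrays lay closer together than the ND arrays and overlapped them. The differences were -0.16 ± 0.27 for Cd34 and -0.084 ± 0.30 for Krt15 (log2, SE), and the second Cd34 probe gave 0.038. Lgr5 measured 2.97, 3.69 and 3.80 in HFD, against 4.16, 4.13 and 3.29 in ND, a difference of -0.38 ± 0.36 with overlapping groups. Angptl7 measured 4.39, 4.73 and 5.01 in HFD, against 2.83, 3.50 and 4.96 in ND, where the highest ND array lay among the HFD arrays. Its difference of 0.95 ± 1.23 (95% interval -1.73 to 3.63) had the opposite sign to that at 3 months. HFD lay wholly below ND for 0 of the 4 genes at 4 days, as against 5.97% of all genes.

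Averaged over both durations, HFD differed from ND by -0.33 ± 0.19 for Cd34, -0.091 ± 0.21 for Krt15, -0.48 ± 0.25 for Lgr5 and 0.056 ± 0.87 for Angptl7 (log2, SE, limma adjusted p of 1 for each). The 95% interval was -0.73 to 0.083 for Cd34 and -1.03 to 0.074 for Lgr5. An exact permutation test within durations gave an unadjusted two-sided p of 0.015 for Cd34, 0.31 for Krt15, 0.09 for Lgr5 and 0.925 for Angptl7, where the smallest possible was 0.005. The second Cd34 probe gave an averaged difference of -0.11. The diet difference at 3 months minus that at 4 days was -0.33 ± 0.38 for Cd34, -0.013 ± 0.42 for Krt15, -0.2 ± 0.51 for Lgr5 and -1.79 ± 1.74 for Angptl7 (log2, SE, limma adjusted p of 1 for each). A dependence on duration was not detectable at this number of arrays. The mice of the longer duration were also older and on another slide, so duration, age and slide cannot be told apart here.

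The surrounding lists had 0 genes past the threshold in either diet comparison. The 22 other bulge genes had a median difference of -0.18 at 3 months, with 16 below 0, and of -0.16 at 4 days, with 14 below 0, against medians over all genes of -0.039 and -0.046. No share of all genes below 0 is set beside the counts in this paragraph, so they are descriptive only. At 3 months the smallest p among the surface genes was that of Podxl2, a relative of Cd34 that encodes endoglycan, at -3.24 ± 0.77 (log2, SE, limma adjusted p of 1). In the R-spondin system it was that of Znrf3, which encodes a ubiquitin ligase that removes Wnt receptors, at 1.2 ± 0.42, and among bulge genes that of Ltbp2, at -0.65 ± 0.35. At 4 days Rspo1, an R-spondin gene, differed by 3.23 ± 1.0 and Angptl1 by 3.12 ± 1.28, neither passing. Of the angiopoietin-like and niche genes 1 of 9 was below 0 at 4 days, with a median of 0.66.

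**Figure D3:**
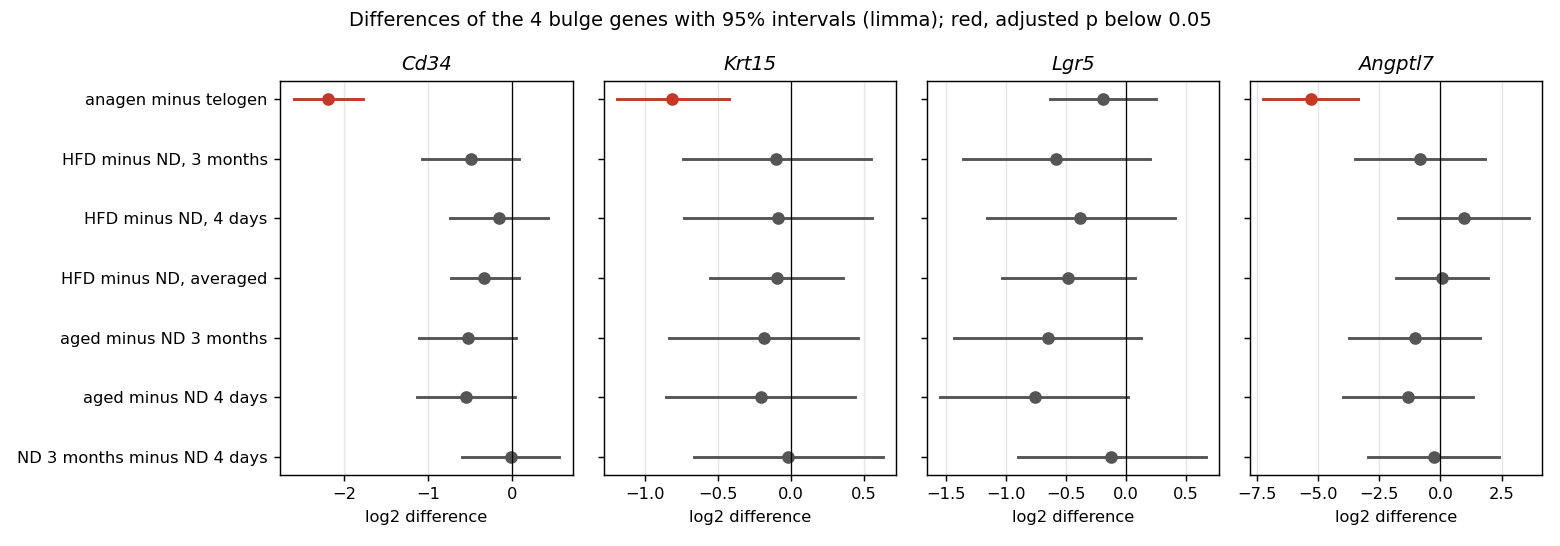
Differences of the 4 genes with 95% intervals from limma (log2, first-named group minus second) for anagen against telogen over 20 arrays and for the comparisons among telogen groups of 3 arrays. The anagen intervals of Cd34, Krt15 and Angptl7 (red, adjusted p under 0.05) exclude 0, and the intervals of the telogen comparisons include it.

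The third set asked what age did to the 4 genes in telogen, with the 24-month-old mice set against ND mice of 5 months and of 2 months. None of the 4 passed, where 12 genes (0.0641%) passed against ND 3 months and 7 genes (0.0374%) against ND 4 days. The 2 comparisons share the aged arrays. Aged telogen arrays lay on a slide of their own among telogen arrays, so the slide term of the blocked values below rests on single anagen arrays.

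Cd34 measured 4.73, 4.84 and 5.56 in aged telogen, against 5.68, 5.48 and 5.56 in ND 3 months and 5.37, 5.80 and 5.61 in ND 4 days. Aged replicates 1 and 2 lay below all ND arrays, and replicate 3 lay among them. The difference was -0.53 ± 0.27 against ND 3 months (log2, SE, 95% interval -1.11 to 0.046, limma adjusted p of 0.452) and -0.55 ± 0.27 against ND 4 days (-1.13 to 0.027, limma adjusted p of 0.658). The second Cd34 probe, at 4.32, 4.42 and 4.90 in aged telogen, gave -0.6 and -0.52.

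Lgr5 measured 3.20, 3.25 and 2.85 in aged telogen, against 3.43, 3.95 and 3.86 in ND 3 months and 4.16, 4.13 and 3.29 in ND 4 days. It was the gene of the 4 whose aged arrays lay wholly below both ND groups, as did 6.46% of genes against ND 3 months and 6.51% against ND 4 days. The difference was -0.65 ± 0.36 (log2, SE, 95% interval -1.43 to 0.13, limma adjusted p of 0.496) against ND 3 months and -0.76 ± 0.36 (-1.55 to 0.019, limma adjusted p of 0.648) against ND 4 days. The exact permutation test of 3 against 3 gave its smallest two-sided p of 0.1 in both.

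Krt15 measured 6.13, 6.39 and 7.28 in aged telogen, which spans the ND arrays on both sides (6.76, 6.75 and 6.83 in ND 3 months, 6.45, 7.0 and 6.96 in ND 4 days). Its differences of -0.18 ± 0.30 and -0.2 ± 0.30 (log2, SE) became 0.05 and 0.031 without aged replicate 1. Angptl7 measured 3.95, -1.01 and 4.35 in aged telogen, against 4.66, 3.14 and 2.65 in ND 3 months and 2.83, 3.50 and 4.96 in ND 4 days. Aged replicate 2 was the lowest of the 15 telogen arrays for Angptl7 and was next to the lowest for both Cd34 and Krt15. The differences of -1.05 ± 1.23 and -1.33 ± 1.23 turned to 0.67 and 0.39 without that array. With the slide as a block, the fit included the anagen arrays, so its aged differences are not differences in telogen alone. Against ND 3 months they were -0.65 for Cd34, -0.96 for Krt15, -0.42 for Lgr5 and -5.22 for Angptl7. Against ND 4 days they were -0.35, -0.34, -0.94 and -1.83 in the same order, and none passed. The blocked Angptl7 values include the aged anagen signal of -6.45, which was not well above background.

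Among the surrounding lists 0 genes passed in either ageing comparison. Of the 22 other bulge genes 21 were below 0 against ND 3 months and 18 against ND 4 days, with medians of -0.35 and -0.33, against medians over all genes of 0.059 and -0.087. The share of all genes below 0 is not given, and none of the 22 passed, so these counts are descriptive only. Tnc, which encodes the matrix protein tenascin C, had the smallest p of that list, at -3.56 ± 0.63 (log2, SE, limma adjusted p of 0.102) against ND 3 months and -2.64 ± 0.63 (0.254) against ND 4 days. Among the relatives of Angptl7, Angptl4 differed by 2.67 ± 0.48 (adjusted p of 0.102 in limma) and 1.78 ± 0.48 (0.315), and Angptl2 by -1.21 ± 0.31 and -1.02 ± 0.31. Immune markers summed to 7.91 to 12.8 in aged telogen, against 2.45 to 6.38 in ND 3 months and 2.7 to 8.76 in ND 4 days, and endothelial markers to 0.279 to 0.437, against 0.245 to 0.348 and 0.341 to 0.428. Hair matrix, inner root sheath and shaft markers summed to 4.54 to 7.15 in aged telogen, against 7.04 to 8.51 in ND 3 months, with overlap, and 9.75 to 10.9 in ND 4 days, without overlap. Of the 9 tested none passed, and the smallest p was that of Msx2, at -1.21 ± 0.27 (log2, SE, limma adjusted p of 0.172) against ND 3 months and -1.62 ± 0.27 (0.0684) against ND 4 days. The part of these markers in the differences of the bulge genes was not tested.

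ND mice of 5 months were also set against ND mice of 2 months, which differ in age, in time on the diet and in slide. The differences were -0.02 ± 0.27 for Cd34, -0.019 ± 0.30 for Krt15, -0.12 ± 0.36 for Lgr5 and -0.28 ± 1.23 for Angptl7 (log2, SE), with limma adjusted p between 0.942 and 0.99, where 3 genes (0.016%) passed. The older ND mice lay wholly below the younger for 0 of the 4 genes, as against 19.8% of all genes. Hair matrix markers did not overlap between these groups. Nor did melanocyte markers, which summed to 3.05 to 3.84 in ND 3 months and 4.44 to 5.16 in ND 4 days. The part of these markers in the values of the 4 genes was not tested. Over all genes the median difference was -0.14.

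Across the 5 telogen groups, Cd34, Krt15 and Lgr5 had the same order of means on the brightest probes. ND 4 days came first, then ND 3 months, HFD 4 days, HFD 3 months and aged. The share of all genes in this order is not given, and Cd34 and Krt15 varied together over these arrays, so the match is descriptive. The second Cd34 probe did not keep this order. It had ND 3 months at 5.14, HFD 4 days at 5.1, ND 4 days at 5.06, HFD 3 months at 4.89 and aged at 4.55. For Cd34 the means were 5.59 ± 0.22, 5.57 ± 0.10, 5.43 ± 0.075, 5.08 ± 0.19 and 5.04 ± 0.45 (SD, n = 3 each), and only HFD 4 days and HFD 3 months were neighbours that did not overlap, 0.35 apart. For Lgr5 they were 3.86 ± 0.49, 3.75 ± 0.28, 3.49 ± 0.45, 3.17 ± 0.53 and 3.10 ± 0.21, and every pair of neighbours overlapped. For Krt15 they spanned 6.60 to 6.80, and ND 3 months and HFD 4 days were neighbours that did not overlap, 0.06 apart. Angptl7 had HFD 4 days first at 4.71 ± 0.31, then ND 4 days at 3.76 ± 1.09, ND 3 months at 3.48 ± 1.05, HFD 3 months at 2.65 ± 1.53 and aged at 2.43 ± 2.99, all neighbours overlapping. In limma's F test over the 5 groups the adjusted p was 0.548 for Cd34, 0.989 for Krt15, 0.588 for Lgr5 and 0.738 for Angptl7, where 9 genes (0.0481%) passed.

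The genes differed in how much arrays of a telogen group varied. The pooled SD within groups was 0.25 for Cd34, 0.3 for Krt15, 0.41 for Lgr5 and 1.65 for Angptl7 (log2). Among 13888 genes well above background on all telogen arrays, 6.47% varied less than Cd34 and 14.5% less than Krt15, and the median was 0.6. Angptl7 stood at the other end, with 97.1% of genes varying less. The single anagen arrays were also set against each other between conditions, with no replicate check. Aged minus ND 3 months anagen was 0.85 for Cd34, 0.13 for Krt15, -0.24 for Lgr5 and, with the aged array at background, -4.23 for Angptl7. Aged minus ND 4 days anagen was -0.074, 0.12, -0.72 and -6.84 in the same order of genes. HFD minus ND anagen was 0.81, 0.63, -0.63 and 3.13 at 3 months in that order and -0.38, 0.25, -0.3 and -2.54 at 4 days. The 4 differences were above 0 for Krt15, below 0 for Lgr5 and of both signs for Cd34 and Angptl7, and they share arrays.

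Cd34 and Krt15 varied together over the 15 telogen arrays, with Pearson's r of 0.76 and Spearman's rho of 0.85 (two-sided permutation p of 0.00076 and 0.00014, and 0.00456 and 0.00084 after Benjamini-Hochberg adjustment over 6 pairs). Without aged replicates 1 and 2, the arrays farthest from the Cd34 median, r was 0.53 (permutation p of 0.0654, n = 13). It was 0.91 after group means were removed, and 0.74 within the first slide and 0.85 within the second, neither of which held an aged telogen array. After quantile normalization r was 0.35, with an adjusted p of 0.455 by permutation. The other 5 pairs did not pass, with r of 0.44 for Cd34 and Lgr5, 0.47 for Cd34 and Angptl7, -0.038 for Krt15 and Lgr5, 0.39 for Krt15 and Angptl7 and -0.13 for Lgr5 and Angptl7. Under quantile normalization Cd34 and Lgr5 passed, at r of 0.67 and an adjusted p of 0.0336 by permutation.

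**Figure D4:**
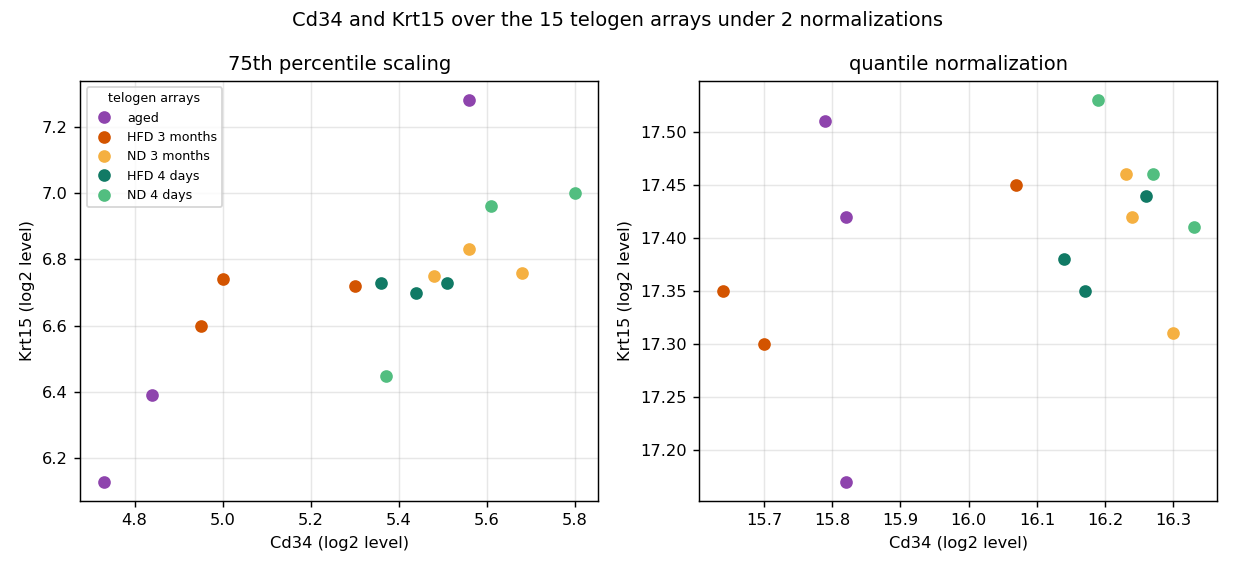
Cd34 against Krt15 on the 15 telogen arrays (log2 levels), coloured by group, after scaling to the 75th percentile (left, r of 0.76) and after quantile normalization (right, r of 0.35). On the left 2 aged arrays lie at the low end of both genes, and on the right the points no longer follow a line.

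The genes most like each of the 4 were named by Pearson's r over the 15 telogen arrays among 12739 genes, as a description over arrays that share their scaling and with no test. Nearest to Cd34 were Ccdc3 (0.91), Surf1 (0.91), Cox6c (0.87), Spint2 (0.85) and Ckmt1 (0.85). Of these, Ccdc3 and Spint2 also fell in anagen, by 2.09 and 0.74 on the log2 scale (limma adjusted p of 0.00127 and 0.0178). Nearest to Krt15 were the ribosomal protein genes Rpl41 (0.97) and Rpl36a (0.96), the ATP synthase gene Atp5h (0.96) and Tpt1 (0.95), and these did not pass in anagen. Nearest to Lgr5 were Col8a2 (0.9), Rbm26 (0.88), Saraf (0.87), Sertad3 (0.84) and Pnrc2 (0.83). Col8a2, which encodes a short-chain collagen, differed by -2.52 ± 0.23 in anagen (log2, SE, limma adjusted p of 1.99e-05), where Lgr5 did not pass. Nearest to Angptl7 were Sbds (0.92), the keratin gene Krt6a (0.91), Spink2 (0.89), Il17rd (0.89) and Akap11 (0.87), and these did not pass in anagen, with Krt6a at -0.014.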

How the data were processed

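RNA of hair follicle stem cells was column-purified, labelled with Cy3 as cDNA and hybridised to 1-colour Agilent mouse arrays, per the labels' protocols. Spot intensities were made by the authors with Feature Extraction 10.7.1.1, per the file headers, and are background-subtracted with no scaling between arrays. The series table they deposited holds a linear signal per probe, which matched the same array's processed intensity over its 75th percentile (median gap 0.0082 in log2). Its column medians ran from 0.088 to 0.168, with no centring of genes, and no direction applies to 1 colour.

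Outlier spots were set missing, spots of a probe averaged, log2 taken and each array's 75th percentile subtracted. A probe was tested if well above background on all 3 arrays of a telogen group or on 3 of 5 anagen arrays (43395 of 56605 probes). Through RefSeq accessions 32994 probes matched 1 symbol and 23611 none, and the brightest tested probe stood for a gene (18727 genes). Telogen groups were compared in 1 fit over 15 arrays and phases in a fit over 20, with limma 3.58.1 in R 4.3.3 (jsonlite 2.0.0 and the data.table package, version 1.17.8). Tests were two-sided and p-values adjusted by Benjamini-Hochberg over the 18727 genes, with a threshold of 0.05. The fits were tested on simulated data. Slides were read from array positions, and the slide block was fitted with the anagen arrays included.

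The members and gene lists were chosen with earlier results of these data known. Named are the 4 genes in every comparison, genes of the lists that passed or otherwise those with the smallest p, and for each of the 4 the 5 genes with the highest r. A gene that this rule names is not reported here. Alternatives were normexp (offset 50), quantile or other scaling, filters on dim probes, the mean over probes, the series table, other spread estimates, other arrays in the fit, a replicate or slide block, leaving out each array and, added after seeing the data, the other Cd34 probe.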

Additional observations from a re-analysis of the deposited data

How the results depend on the processing

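Over the 4 genes, 652 alternative values were computed, of which 610 kept their direction and side of the threshold, 38 reversed, 3 lost a call and 1 gained one. No alternative other than leaving out an array changed a call between anagen and telogen. Cd34 stayed between -2.28 and -1.94 (limma adjusted p 1.2e-06 to 0.000338), Krt15 between -0.98 and -0.53, Lgr5 between -0.21 and -0.16 and Angptl7 between -5.98 and -4.72, and leaving out 1 array gave -2.32 to -1.98, -0.92 to -0.74, -0.25 to -0.12 and -6.2 to -4.42. Reversals were among differences that had not passed. With the other Cd34 probe, Cd34 was 0.038 for HFD 4 days and 0.081 for ND 3 months against ND 4 days, and the mean over probes gave 0.031 there. With the percentile over probes detected on all arrays, Krt15 was 0.0014 for HFD 4 days, and for ND 3 months against ND 4 days Cd34 was 0.0045 and Krt15 0.005. The slide block, fitted with the anagen arrays included, gave 0.3 for Cd34, 0.62 for Krt15 and 3.39 for Angptl7 in that comparison. It gave -0.31 for Angptl7 and diet averaged. Quantile normalization gave 0.046 for Krt15 and diet by duration, and correlations of 0.35 for Cd34 and Krt15, 0.67 for Cd34 and Lgr5, 0.2 for Krt15 and Lgr5 and -0.31 for Krt15 and Angptl7. The cause was not tested.

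Leaving out 1 array gave -0.26 to 0.014 for Krt15 and HFD 4 days, -0.39 to 0.36 for Angptl7 and diet averaged, and for diet by duration -0.11 to 0.16 for Krt15 and -0.46 to 0.08 for Lgr5. For aged against ND 3 months it gave -0.52 to 0.05 for Krt15 and -2.02 to 0.67 for Angptl7, and against ND 4 days -0.54 to 0.031 and -2.29 to 0.39. For ND 3 months against ND 4 days it gave -0.13 to 0.082 for Cd34, -0.19 to 0.079 for Krt15, -0.4 to 0.042 for Lgr5 and -0.87 to 0.32 for Angptl7. Arrays with the same replicate number did not deviate together (r of -0.04 to 0.059), and the replicate block changed no call, with Cd34 at -0.49 for HFD 3 months; it could not be fitted for anagen. A filter requiring signal on all 20 arrays gave no value for Angptl7, and restricting the arrays was not run for anagen.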
